A study of Mus musculus with 16 samples.

Results

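Pdpr and 9 genes of the pyruvate dehydrogenase complex and its control were followed across mouse rotator cuff muscle from 2 inbred strains, without and with surgery. The 10 genes were taken by name from a table of 11710 genes, and every one was present and passed the filter on low counts. Pdpr was chosen by its fall after surgery in BL6, the largest among named genes there, so its values in every contrast that holds BL6 samples are a description with no test. The other members were named for their function, but with earlier results of these data known. The kinase gene Pdk3 and the phosphatase gene Pdp2 were not among them and are given below.

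The study measured messenger RNA by sequencing in 16 samples, 4 in each of 4 groups. The strains were C57BL/6J, called BL6, and MRL/MpJ, called MRL, which is studied for its regenerative healing. Operated mice had undergone tenectomy and denervation of the rotator cuff muscle, that is, removal of tendon with loss of the nerve supply, and the controls were unoperated. The sample labels name the supraspinatus and the series' design text the infraspinatus, so the text speaks of the rotator cuff muscle in general. Age, sex, time after surgery and whether each sample was 1 animal were not given in the sources used here, so the p-values measure only the spread between these samples.

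The pyruvate dehydrogenase complex sits in the mitochondrial matrix and turns pyruvate, the end product of glycolysis, into acetyl-CoA for the citric acid cycle. Its E1 enzyme is built from alpha and beta chains, E2 carries the lipoyl groups, and E3 reoxidizes them, held in place by an E3-binding protein. Pyruvate dehydrogenase kinases switch E1 off by phosphorylation, and the phosphatase, a catalytic subunit bound to the regulatory subunit PDPR, switches it on again. In skeletal muscle this switch sets how much carbohydrate is burned in place of fat.

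The stretches before the gene starts of Pdpr and Pdk2 are printed because these are the members whose promoter windows hold the E-box letters CACGTG, and Pdpr's also holds the cAMP response element TGACGTCA. Both are RefSeq promoter sequences in the GRCm38.p6 build, read on the gene's own strand and ending before the annotated transcript. Capitals mark matches to 4 motifs searched on both strands, which are TGACGTCA, CACGTG, the GC box GGGCGG and the CCAAT box. The Pdpr stretch is chr8:111094495-111094608 on the plus strand and the Pdk2 stretch is chr11:95041372-95041621 on the minus strand.
Pdpr: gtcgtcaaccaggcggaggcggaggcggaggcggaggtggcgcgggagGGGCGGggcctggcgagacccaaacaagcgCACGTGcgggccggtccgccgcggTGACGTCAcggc
Pdk2: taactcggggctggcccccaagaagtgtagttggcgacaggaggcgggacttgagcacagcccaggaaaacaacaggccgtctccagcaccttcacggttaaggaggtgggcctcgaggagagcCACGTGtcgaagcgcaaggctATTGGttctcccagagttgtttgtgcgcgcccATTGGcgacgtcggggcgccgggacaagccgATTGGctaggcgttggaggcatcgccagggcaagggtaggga
Promoter windows of 250 bases before to 50 bases after the start were found for 9 of the 10 members, in 11 windows, and Pdp1 was not matched. Of all 32851 mouse windows, 1.79% hold TGACGTCA and 7.15% hold CACGTG. The CCAAT box stood in the windows of 5 members, Dld, Pdhb, Pdhx, Pdk2 and Pdk4, against 37.4% of all windows, and GGGCGG in those of 5, Dlat, Pdhb, Pdhx, Pdk1 and Pdpr, against 35.7%. The letters of an estrogen-related receptor element, TNAAGGTCA, a forkhead site, GTAAACA, and an NRF1 core, CGCATGCG, were in no member's window and in 1.28%, 3.65% and 1.87% of all windows. These are matches of letters and not measured binding.

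Totals ran from 24323862 to 43552964 counts per sample. Libraries of 3 groups stood apart from the rest of their group, a pair in MRL and 1 in BL6. On the first principal component of log2 expression, which separated operated from unoperated samples, unoperated MRL replicate 1 lay at -7.49 and the other unoperated MRL samples at -44.9 to -38.7. Operated MRL replicate 4 lay at 13.4 and the other operated MRL samples at 25.9 to 54.8, and mitochondrially encoded genes took 11.8% of its counts against 20.1% to 24.9% in the others. Operated BL6 replicate 4 lay at 86.1, beyond the other operated BL6 samples at 16.7 to 51.0. The 2 MRL libraries also lay apart from their groups in Pdpr, as given below. Each member's change in MRL is therefore given with all 8 MRL libraries and without these 2. They held the lowest unoperated and the highest operated MRL value of every member except Pdp1 and Pdhb. Leaving them out thus had to enlarge those falls. They were picked after the data were seen, so p-values without them are no separate support. Each member's change in BL6 is also given without operated BL6 replicate 4. Muscle fiber markers (Acta1, Ckm, Mb, Tnnt3, Mylpf) summed to 45699 to 99191 CPM, the counts of a gene scaled to each library's total, in the 16 samples.

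Pdpr encodes the regulatory subunit of pyruvate dehydrogenase phosphatase (ENSMUSG00000033624; GRCm38, chromosome 8, 111094630 to 111137074, plus strand, a protein-coding gene with 18 exons in its main transcript). Unoperated BL6 samples held 100.2, 86.6, 138 and 147 CPM, and operated BL6 samples 6.42, 6.62, 4.72 and 3.33 CPM. The groups did not overlap, and the lowest unoperated sample lay far above the highest operated one. The means were 118 ± 29.1 and 5.27 ± 1.55 CPM (SD, n = 4), and the fitted fall was 22.5-fold (log2 fold change -4.49, SE 0.77). The lowest value, 3.33 CPM in operated BL6 replicate 4, rested on 117 counts, with an exact 95% Poisson interval of 2.75 to 3.99 CPM that covers counting error only.

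**Figure D1:**
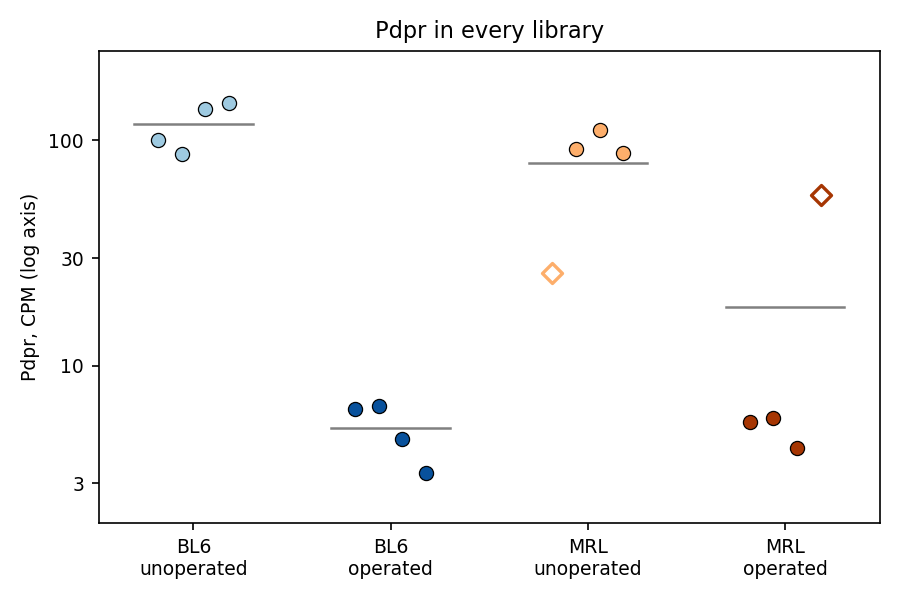
Pdpr in CPM on a log axis, 1 point per library in the 4 groups, with grey lines at the group means; open diamonds mark the 2 MRL libraries that stand apart. Operated BL6 samples sit between 3.33 and 6.62 CPM, 3 operated MRL samples between 4.30 and 5.86 CPM, and the operated MRL diamond at 57.1 CPM.

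In MRL, which had no part in the choice of Pdpr, the unoperated samples held 25.7, 91.5, 111 and 87.7 CPM and the operated samples 5.60, 5.86, 4.30 and 57.1 CPM. The groups overlapped only through the libraries that stand apart, since unoperated replicate 1 held the 25.7 CPM and operated replicate 4 the 57.1 CPM. Pdpr fell in MRL by 2.10 on the log2 scale (SE 0.69, 95% interval -3.56 to -0.64, 4.30-fold). The adjusted p was 0.0224 by the quasi-likelihood test of edgeR over all 11709 genes. Without the 2 libraries the fall was 18.4-fold (log2 fold change -4.20, SE 0.27, adjusted p 6.7e-07 in the same test, 3 against 3). These libraries held the lowest unoperated and the highest operated Pdpr value, so leaving them out had to enlarge the fall. They were set aside after the data were seen, and that p is no separate support for the fall. With only the 8 MRL samples in the fit the change had an adjusted p of 0.0676 in edgeR, and the call was also lost when unoperated MRL replicate 3 or operated MRL replicate 1, 2 or 3 was left out (adjusted p 0.0579 to 0.0621).

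By mean, the groups ranked unoperated BL6 (118 CPM), unoperated MRL (79.0 ± 37.0 CPM), operated MRL (18.2 ± 25.9 CPM) and operated BL6 (5.27 CPM). Neither the 2 unoperated groups nor the 2 operated groups were apart beyond their spread, as the sample ranges of each pair overlapped. The difference of the surgery effects between the strains was 2.39 on the log2 scale with all samples and 0.29 without the 2 MRL libraries. Operated MRL exceeded operated BL6 by 1.81 with all samples, and the difference was -0.0044 without them. The strain contrasts of Pdpr thus rested on these libraries, and they carry no test because BL6 samples chose the gene.

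Across the complex the picture after surgery was a joint fall with exceptions. In BL6, 7 of the 9 members tested were called lower at an adjusted p under 0.05 and 0 higher, where 32.8% of all genes tested were called lower and 35.1% higher. In MRL, 7 of 10 members were called lower and 0 higher, against 22.7% of all genes lower and 22.3% higher. The members were chosen with earlier results of these data known, and Pdk3, a kinase outside them, was called higher in both strains. Without the 2 MRL libraries 8 of 10 were lower in MRL, against 28% of all genes. The MRL count was 3 of 10 when operated MRL replicate 3 was left out. Without operated BL6 replicate 4, 7 of 9 were lower in BL6 as well. The log2 fold changes in BL6 without that library were -4.32 for Pdpr, -1.39 for Pdp1, -0.82 for Pdha1, -0.998 for Dlat, -1.13 for Dld, -0.64 for Pdhx, -1.20 for Pdk1 and -0.76 for Pdk2. Of the members not called, Pdhb was then at 0.039, and Pdk4 at -0.51. In bulk muscle, fewer cells of a type and less RNA per cell cannot be told apart.

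**Figure D2:**
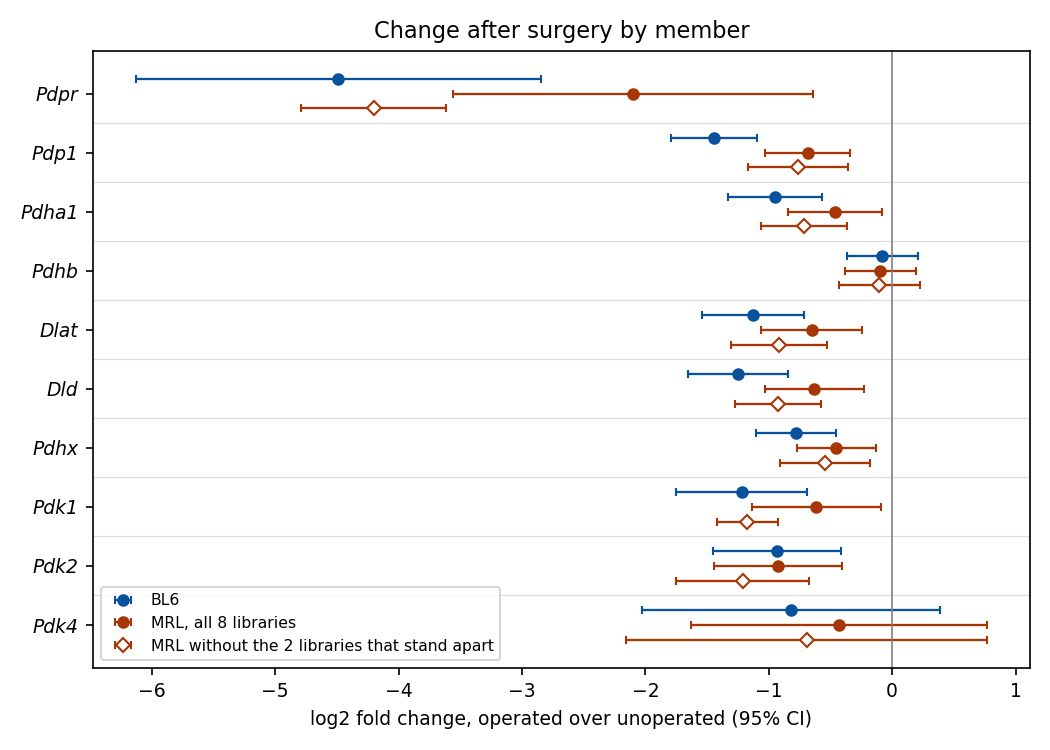
Log2 fold change of each member after surgery with its 95% confidence interval, in BL6, in MRL with all 8 libraries and in MRL without the 2 libraries that stand apart (open diamonds). Pdpr lies farthest to the left in BL6 (-4.49), and the intervals of Pdhb and Pdk4 cross 0 in each of the 3 sets.

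Pdha1 encodes the alpha chain of E1, the chain that the kinases phosphorylate. It held 893, 844, 866 and 930.4 CPM in unoperated BL6 and 479, 531, 496 and 323 CPM in operated BL6. The BL6 groups did not overlap, and Pdha1 fell 1.93-fold (log2 fold change -0.95, SE 0.18, edgeR adjusted p 0.000342). In MRL, unoperated samples held 668, 925, 864 and 934 CPM and operated samples 587, 597, 472 and 802 CPM. These overlapped through unoperated replicate 1, the lowest, and operated replicate 4, the highest. The MRL fall was 0.46 on the log2 scale (SE 0.18, edgeR adjusted p 0.0448), and 0.72 without these libraries (edgeR adjusted p 0.00242). Leaving these libraries out had to enlarge the fall, so the latter p is no separate support. The call with all samples lay close to the threshold and was lost in 12 of the 16 fits that left out 1 library, with adjusted p up to 0.143. With the replicate number as a block its adjusted p was 0.0638.

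Pdhb, the beta chain of the same enzyme, did not follow. Its values were 253, 252, 265 and 279 CPM in unoperated BL6 and 255, 294, 264 and 181 CPM in operated BL6. The unoperated values lay inside the operated range, and only operated replicate 4 was below them all. The log2 fold change was -0.08 with a 95% interval of -0.37 to 0.21 (edgeR adjusted p 0.613), which excludes a fall as large as that of Pdha1. MRL samples held 209.5, 229.6, 217 and 247 CPM unoperated and 229.6, 232, 184 and 200.1 CPM operated, with a log2 fold change of -0.10 (interval -0.38 to 0.19, adjusted p 0.574), and -0.10 (interval -0.43 to 0.22) without the 2 libraries. Pdhb has a near-identical copy in the genome, Gm6123, 97% identical over 1079 aligned bases, which was not analysed here, so how reads were shared between them is uncertain.

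The ratio of Pdha1 to Pdhb CPM was looked at after these values were seen. It was 3.53, 3.34, 3.27 and 3.33 in unoperated BL6 and 1.87, 1.81, 1.88 and 1.78 in operated BL6. Within each group the ratios were close together, and the groups were far apart (means 3.37 ± 0.113 and 1.84 ± 0.0493, SD, n = 4). The log2 difference was -0.87, and the two-sided exact permutation test gave p = 0.0286, the smallest that 4 against 4 can give. The fall of Pdha1 without one of Pdhb had already been seen in these BL6 samples, so this p is no separate support. Unoperated MRL samples had ratios of 3.19, 4.03, 3.99 and 3.78 and operated MRL samples 2.56, 2.58, 2.57 and 4.01. Here 3 operated samples were below every unoperated sample and replicate 4 was among the highest, so the log2 difference of -0.38 had an exact p of 0.114. Without the 2 libraries it was -0.61 with p = 0.1, the smallest exact p that 3 against 3 can give. Without operated replicate 4 alone it was -0.54 with an exact p of 0.0286, the smallest that 4 against 3 can give. Replicate 4 was the only operated sample not below every unoperated one and was left out after the ratios were seen, so that p is no separate support. Every operated MRL ratio lay above every operated BL6 ratio. Part of Pdha1's exons, 16.1%, overlaps Map3k15 on the opposite strand, and Map3k15 held at most 0.938% as many counts as Pdha1 in any sample.

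**Figure D3:**
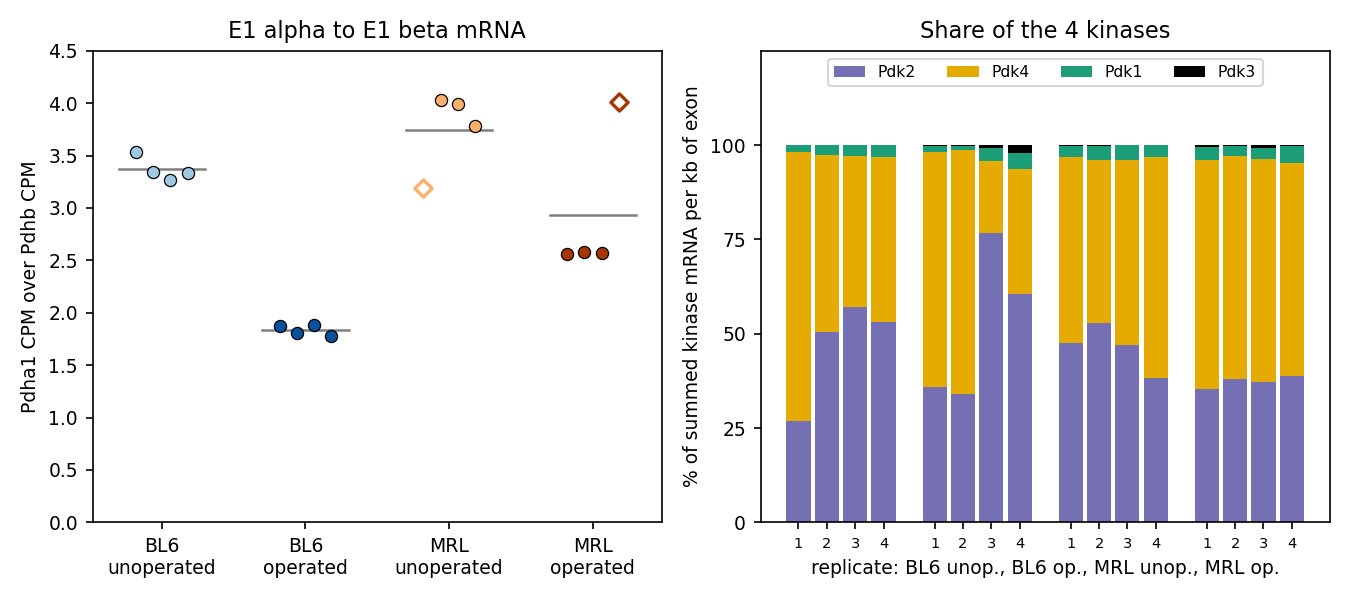
Left, the ratio of Pdha1 to Pdhb CPM in each library with grey lines at the group means and open diamonds for the 2 MRL libraries that stand apart; right, the share of each kinase in the sum of Pdk1 to Pdk4 per kilobase of exon, 1 bar per library. Operated BL6 ratios sit at 1.78 to 1.88, and Pdk2 and Pdk4 make up nearly the whole of every bar.

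Dlat, the E2 acetyltransferase, held 231 to 259 CPM in unoperated and 80.4 to 146 CPM in operated BL6, without overlap, and fell 2.18-fold (log2 fold change -1.13, SE 0.19, edgeR adjusted p 0.000172). In MRL it ran from 182 to 254 CPM unoperated and 100.4 to 195 CPM operated. The MRL fall was 0.65 on the log2 scale (edgeR adjusted p 0.0138) and 0.92 without the 2 libraries. Dld, the E3 dehydrogenase that other 2-oxo acid dehydrogenases share, held 339, 315, 328 and 359 CPM in unoperated and 155, 169, 139 and 101 CPM in operated BL6. It had the largest fall of the structural subunits in BL6, 2.38-fold (log2 fold change -1.25, SE 0.19, edgeR adjusted p 7.45e-05). In MRL, Dld held 265, 339, 335 and 379 CPM unoperated and 197, 201, 155 and 297 CPM operated, and the overlap came again from unoperated replicate 1 and operated replicate 4. Its MRL fall was 0.63 on the log2 scale (SE 0.19, edgeR adjusted p 0.0148) and 0.93 without them. Leaving out operated MRL replicate 3 ended that call, at an adjusted p of 0.0547. Pdhx, the E3-binding protein, fell least of the called subunits in BL6, from 123 to 132 CPM to 50.3 to 92.0 CPM (log2 fold change -0.78, SE 0.15, edgeR adjusted p 0.000434). In MRL it went from 128 to 153 CPM to 82.4 to 113 CPM, without overlap, a fall of 0.45 (adjusted p 0.0252) with all samples and 0.54 without the 2 libraries. That call was lost when unoperated replicate 2 or 4 or operated replicate 3 was left out (adjusted p 0.0611 to 0.0892).

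**Figure D4:**
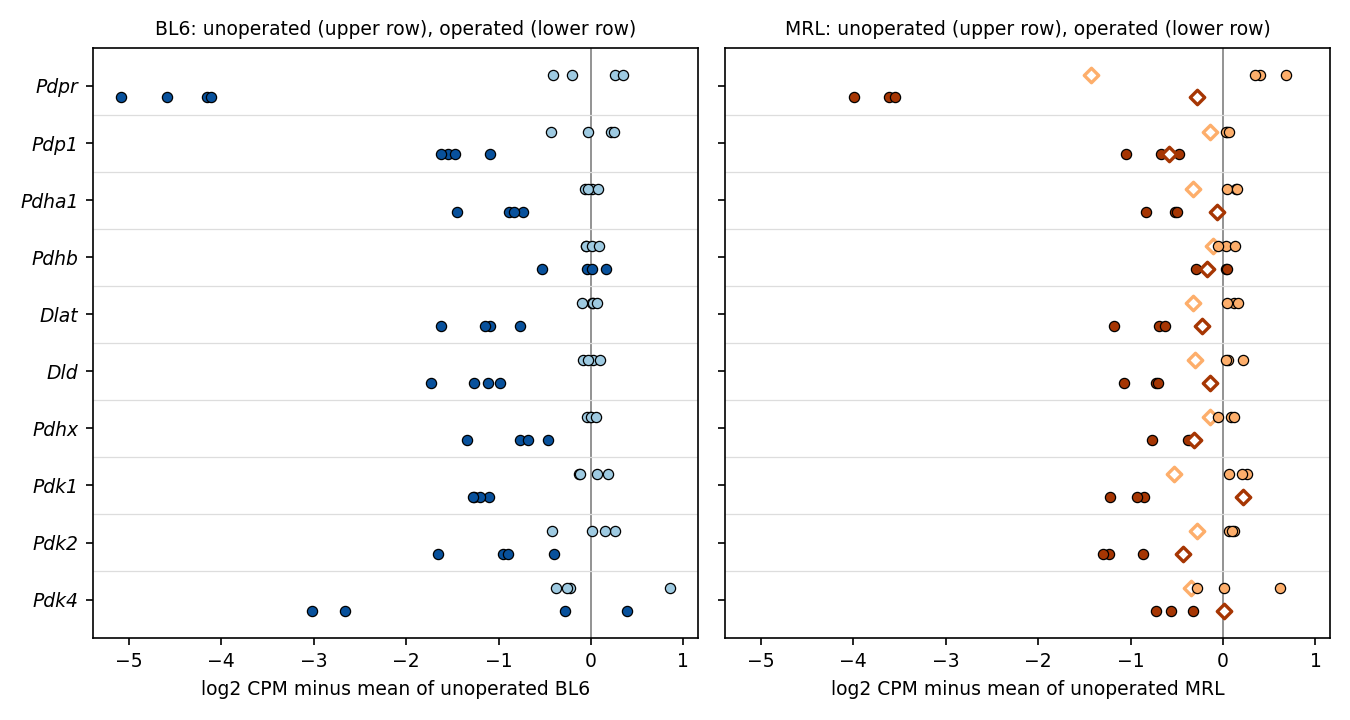
Log2 CPM of each member in every library minus the mean of its strain's unoperated samples, with unoperated libraries in the upper row and operated ones in the lower row of each gene, and open diamonds for the 2 MRL libraries that stand apart. Operated Pdhb points straddle 0 in both strains, and Pdk4 in operated BL6 splits into 2 samples within the unoperated range and 2 samples far below.

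Of the kinases, Pdk1 held 72.3, 72.5, 82.3 and 89.7 CPM in unoperated BL6 and 32.7, 36.6, 34.3 and 32.6 CPM in operated BL6. Operated samples were closely grouped, and Pdk1 fell 2.33-fold (log2 fold change -1.22, SE 0.25, edgeR adjusted p 0.000627). In MRL it held 62.8, 94.8, 108 and 105 CPM unoperated and 49.9, 47.5, 38.8 and 105 CPM operated. Operated replicate 4 held as much as the unoperated samples, and the difference of -0.62 (SE 0.25) missed the threshold at an edgeR adjusted p of 0.0520. It was called with DESeq2 (adjusted p 0.0267), limma-voom (0.0268), the replicate number as a block (0.0281), without mitochondrially encoded genes (0.0406) and with size factors as in DESeq2 (0.0442), and without either of the MRL libraries that stand apart (0.0226 and 0.000168). Over the 16 fits that left out 1 library, the change ran from -1.03 to -0.455, with edgeR adjusted p up to 0.159. Without the 2 libraries Pdk1 fell in MRL by 1.17 (SE 0.12, edgeR adjusted p 8.69e-06), where the BL6 fall was 1.22. These libraries held its lowest unoperated and highest operated MRL value, so leaving them out had to enlarge the fall. That p is no separate support.

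Pdk2, a kinase found in most tissues, held 434 to 695 CPM in unoperated and 184 to 439 CPM in operated BL6. It fell by 0.93 on the log2 scale in BL6 (SE 0.24, edgeR adjusted p 0.00351), although the ranges overlapped. In MRL it fell by 0.92 (SE 0.24, edgeR adjusted p 0.00821), where 409 to 541 CPM unoperated stood above 202 to 369 CPM operated. Without the 2 libraries the MRL fall was 1.21. Pdk4, the kinase best known for rising in fasting, varied widely in BL6. It held 1282, 606, 545 and 593 CPM in unoperated BL6 and 583, 930.0, 87.1 and 112 CPM in operated BL6. Among the operated samples 2 were within the unoperated range and 2 were far below it, and the log2 fold change of -0.82 had an SE of 0.57 and an edgeR adjusted p of 0.208. Leaving out operated BL6 replicate 2 made it -1.54 with an adjusted p of 0.0219. In MRL Pdk4 held 469 to 909 CPM unoperated and 358 to 598 CPM operated, a log2 fold change of -0.43 (interval -1.63 to 0.77), or -0.69 without the 2 libraries.

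Counted per kilobase of exon, Pdk2 and Pdk4 together made up most kinase mRNA. Pdk2 took 46.8% ± 13.6 of the sum of the 4 kinases in unoperated BL6 (SD, n = 4) and Pdk4 50.6% ± 14.1. In operated BL6 the shares were 51.7% ± 20.6 and 44.9% ± 22.3, and the spread between samples was larger than the shift. In MRL, Pdk2 went from 46.5% ± 6.12 to 37.3% ± 1.41 and Pdk4 from 49.9% ± 6.44 to 58.8% ± 1.72. Pdk1 stayed between 1.15% and 4.48% in every sample. Pdk3 was under 1% by mean in every group, with a highest share of 2.01%.

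Pdp1, the catalytic subunit of the phosphatase that the PDPR protein binds, held 83.6, 110.3, 132 and 135 CPM in unoperated BL6 and 38.7, 40.9, 53.0 and 36.6 CPM in operated BL6. The groups did not overlap, and Pdp1 fell 2.72-fold (log2 fold change -1.44, SE 0.16, edgeR adjusted p 1.43e-05), the largest fall of the 9 members tested in BL6. In MRL it held 107, 122, 121 and 124 CPM unoperated and 84.9, 74.1, 56.9 and 78.8 CPM operated, again without overlap. The MRL fall was 0.68 (SE 0.16, edgeR adjusted p 0.00487) and 0.76 without the 2 libraries. Per kilobase of exon, Pdpr and Pdp1 stood at 23.4 ± 5.78 and 25.5 ± 5.25 CPM in unoperated BL6, within each other's spread, and at 1.05 ± 0.309 and 9.39 ± 1.64 CPM in operated BL6. In the 3 operated MRL samples other than replicate 4, Pdpr was likewise at 4.30 to 5.86 CPM while Pdp1 was at 56.9 to 84.9 CPM.

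Among the structural subunits, unoperated BL6 held per kilobase of exon 237 ± 9.96 CPM of Pdha1, 91.0 ± 5.06 of Dld, 68.0 ± 3.31 of Pdhb, 50.8 ± 2.45 of Dlat and 32.4 ± 0.920 of Pdhx. Each neighbour in that order was apart by more than the SDs. In operated BL6 the values were 122 ± 24.7 CPM for Pdha1, 64.3 ± 12.4 for Pdhb, 38.3 ± 7.94 for Dld, 23.3 ± 5.50 for Dlat and 18.8 ± 4.44 for Pdhx, so Pdhb stood above Dld, and Dlat and Pdhx were within each other's spread. Kinase mRNA in unoperated BL6 ran from 10.2 ± 1.08 CPM per kilobase for Pdk1 to 187 ± 35.8 for Pdk2 and 215 ± 100.1 for Pdk4, the last pair within their spread.

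No member's response was called different between the strains. In the strain by surgery interaction, 0 of 9 members were called in edgeR, against 0.248% of all genes, and 2 had an unadjusted p under 0.05. These were Pdp1, whose fall was smaller in MRL by 0.76 on the log2 scale (unadjusted p = 0.00441, adjusted p 0.167 with edgeR), and Dld, with 0.62 (unadjusted p = 0.0343, adjusted p 0.285 with edgeR). DESeq2 and limma-voom also called 0 of 9. The interval for Pdp1, 0.27 to 1.24, did not include 0 before adjustment, so a difference was neither called nor shown to be absent. Without the 2 MRL libraries the Pdp1 value was 0.68 and the Dld value 0.32.

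Between unoperated muscles of the strains, 0 of 9 members were called with all samples, against 10.4% of all genes. Without the 2 MRL libraries Pdk1 was called, 0.36 higher in MRL on the log2 scale (edgeR adjusted p 0.0439), where the value with all samples was 0.23. Between operated muscles, 3 of 9 were called, all higher in MRL, against 12.9% of all genes in either direction. Pdp1 was higher in operated MRL by 0.80 (SE 0.16, edgeR adjusted p 0.00366), and every operated MRL sample exceeded every operated BL6 sample. Pdk1 was higher by 0.83 (adjusted p 0.0391), or by 0.41 without the 2 libraries (adjusted p 0.0247), and its call was lost in 8 of the 16 fits that left out 1 library and with only the groups compared (adjusted p 0.139). Pdhx was higher by 0.48 (adjusted p 0.0484), a call lost in 13 of the 16 fits that left out 1 library, with the replicate number as a block (adjusted p 0.0700), with only the groups compared (0.215) and without the 2 libraries (0.106). Dld, at 0.59, missed the threshold with an edgeR adjusted p of 0.0502. The count of 3 became 1 when any of 7 single libraries was left out, with Pdp1 the gene that remained, and 5 with scaling to total counts alone.

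Genes around the complex moved in mixed directions, and their lists were written with earlier results of these data known. Of the other kinase and phosphatase genes, Pdk3, a kinase that is scarce in muscle, rose in both strains, from 0.722 ± 0.191 to 2.84 ± 1.41 CPM in BL6 (log2 fold change 1.98, edgeR adjusted p 0.000145) and from 1.17 ± 0.236 to 2.43 ± 0.682 CPM in MRL (1.04, adjusted p 0.0174, and 1.29 without the 2 libraries). The MRL call for Pdk3 was lost when unoperated or operated replicate 3 was left out. Pdp2, the other catalytic phosphatase subunit, was not called in either strain, with log2 fold changes of -0.39 and -0.34.

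Of 10 genes for pyruvate supply and its other fates, 5 were lower and 1 higher in BL6 (median log2 fold change -0.45, against 0.04 over all genes), and 3 lower and 0 higher in MRL (median -0.40, against 0.01), or 5 lower and 1 higher without the 2 libraries. Background shares for these and the next lists are the 32.8% lower and 35.1% higher of all genes in BL6 and the 22.7% and 22.3% in MRL. On leaving out each library the rising genes in BL6 numbered 0 to 2 and the falling genes in MRL 2 to 5. Gpt2, the mitochondrial alanine aminotransferase, which makes alanine from pyruvate, had the largest fall in both strains, from 340 ± 55.3 to 95.2 ± 74.7 CPM in BL6 (log2 fold change -1.84, edgeR adjusted p 0.000440) and from 195 ± 23.8 to 71.1 ± 11.1 CPM in MRL (-1.45, adjusted p 0.00580, and -1.47 without the 2 libraries). Gpt, its cytosolic relative, was the riser in BL6, by 0.35 (adjusted p 0.0439), a call that was lost in 8 of the 16 fits that left out 1 library.

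Of 7 analysed genes for the lipoic acid and thiamine cofactors, 2 were lower and 1 higher in BL6 (median -0.35) and 2 lower and 0 higher in MRL (median -0.33). The falling shares are near those of all genes. Without the 2 MRL libraries 4 were lower and 1 higher in BL6, and 2 lower and 0 higher in MRL. The MRL count of 2 ran from 1 to 3 on leaving out each library, and was 1 with the replicate number as a block. In BL6 Lipt1, a lipoyltransferase, fell by 0.46 (edgeR adjusted p 0.0105) and Glrx5, an iron-sulfur cluster assembly protein, rose by 0.55 (adjusted p 0.00146).

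Of 10 genes of the related 2-oxo acid dehydrogenases, 5 were lower in BL6 (median -0.66) and 6 in MRL (median -0.50), 7 without the 2 libraries, and 0 were higher in either strain. The MRL count was 3 when unoperated MRL replicate 2 or 4 or operated MRL replicate 3 was left out. Dbt, the E2 subunit of the branched-chain complex, fell most in BL6, from 58.1 ± 12.2 to 21.4 ± 3.46 CPM (log2 fold change -1.44, edgeR adjusted p 7.5e-05), and in MRL from 36.0 ± 6.26 to 19.3 ± 6.76 CPM (-0.90, adjusted p 0.00557, and -1.29 without the 2 libraries). Bckdha and Bckdhb, the E1 chains of that complex, were not called in either strain.

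Of 10 transcription regulators known for Pdk4 and oxidative genes, 5 were lower and 3 higher in BL6 (median -0.40) and 3 lower and 1 higher in MRL (median -0.28), or 6 lower and 1 higher without the 2 libraries. The MRL count of falling genes was 1 with only the MRL groups in the fit and without unoperated MRL replicate 3 or operated MRL replicate 1 or 2, and 6 without operated MRL replicate 4. The BL6 count of falling genes was 3 without unoperated BL6 replicate 3. Ppara, a nuclear receptor that drives fat oxidation genes and Pdk4, fell from 9.98 ± 1.93 to 1.92 ± 0.675 CPM in BL6 (log2 fold change -2.38, edgeR adjusted p 0.00124). In MRL, Ppara held 3.12, 7.18, 9.61 and 10.6 CPM unoperated and 1.18, 1.25, 1.24 and 6.76 CPM operated, with replicate 1 lowest and replicate 4 highest in their groups, as for Pdpr. Its MRL change was -1.52 (adjusted p 0.0265) and -2.89 without these libraries. The call was lost with only the MRL groups in the fit (adjusted p 0.0694) and without unoperated MRL replicate 3 or 4 or operated MRL replicate 1, 2 or 3 (0.0684 to 0.0824). Pparg, the nuclear receptor of adipocyte formation, rose from 3.85 ± 0.667 to 15.5 ± 4.74 CPM in BL6 (2.01, adjusted p 2.01e-05) and from 5.30 ± 1.40 to 15.9 ± 3.84 CPM in MRL (1.59, adjusted p 0.000660, and 1.66 without the 2 libraries).

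Markers of several other cell types moved with surgery. Of all genes, 35.1% were called higher and 32.8% lower in BL6, and 22.3% and 22.7% in MRL. In BL6 the summed adipocyte markers ran from 208 to 279 CPM unoperated and 1209 to 1656 CPM operated, and in MRL from 262 to 369 and 1086 to 1902 CPM, with 4 of 4 analysed adipocyte markers called higher in each strain. Endothelial markers were called higher for 3 of 4 in BL6 and 4 of 4 in MRL. Schwann cell markers were called higher for 4 of 4 in both strains and smooth muscle markers for 3 of 3 in both. Macrophage markers were called higher for 2 of 4 in BL6 and 0 of 4 in MRL, and fibroblast markers for 2 of 5 in BL6 and 0 of 5 in MRL. Fibroblast markers summed to 535 to 1287 CPM in unoperated and 748 to 5157 CPM in operated BL6, and to 1110 to 1907 and 1413 to 2850 CPM in MRL. Macrophage markers ran from 9.12 to 24.7 CPM in unoperated and 18.2 to 129.5 CPM in operated BL6, and from 15.4 to 98.6 CPM in unoperated MRL, where replicate 1 held the 98.6, and 26.1 to 48.8 CPM in operated MRL. Fibroblast markers reached 5157 CPM in operated BL6 replicate 4, where the fiber markers had their lowest sum, 45699 CPM, and where every member except Pdk4 had its lowest BL6 value. Fiber markers were called lower for 2 of 5 in each strain, and their sums overlapped in BL6 (83818 to 99191 unoperated, 45699 to 96029 operated) and not in MRL (72086 to 84874 and 55723 to 70099 CPM). Erythroid markers were called in neither strain. Of the 33 markers, 32 were analysed here and 0 were at 0 in any sample. The part of these cell types in the members' falls was not tested.

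The 5 genes whose log2 CPM followed Pdpr most closely over the 16 samples were Msi2, an RNA-binding protein (Pearson r 0.997), Strn3, a striatin-family scaffold (0.994), Dnajc16, a DnaJ-domain protein (0.993), Atg2b, a lipid transfer protein of autophagy (0.992), and Gpam, the mitochondrial glycerol-3-phosphate acyltransferase (0.992). These correlations describe samples that share 2 strains, surgery and 2 libraries that stand apart. Msi2 fell from 139 ± 12.9 to 45.7 ± 5.85 CPM in BL6, and Gpam from 175 ± 28.9 to 9.34 ± 2.09 CPM, so the size of the change differed among them while the order of the samples was much alike. In unoperated MRL replicate 1 Gpam held 42.9 CPM, under the 112 CPM or more of the other unoperated MRL samples, and in operated MRL replicate 4 it held 72.5 CPM, above the 11.1 CPM or less of the others. Msi2 showed the same, with 85.0 CPM in the first library against at least 127 CPM, and 104 CPM in the second against at most 52.8 CPM. Among the members, r with Pdpr was 0.95 for Dlat and for Dld, 0.94 for Pdha1, 0.92 for Pdk1, 0.89 for Pdk2, 0.85 for Pdp1, 0.82 for Pdhx, 0.58 for Pdk4 and 0.28 for Pdhb.

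**Figure D5:**
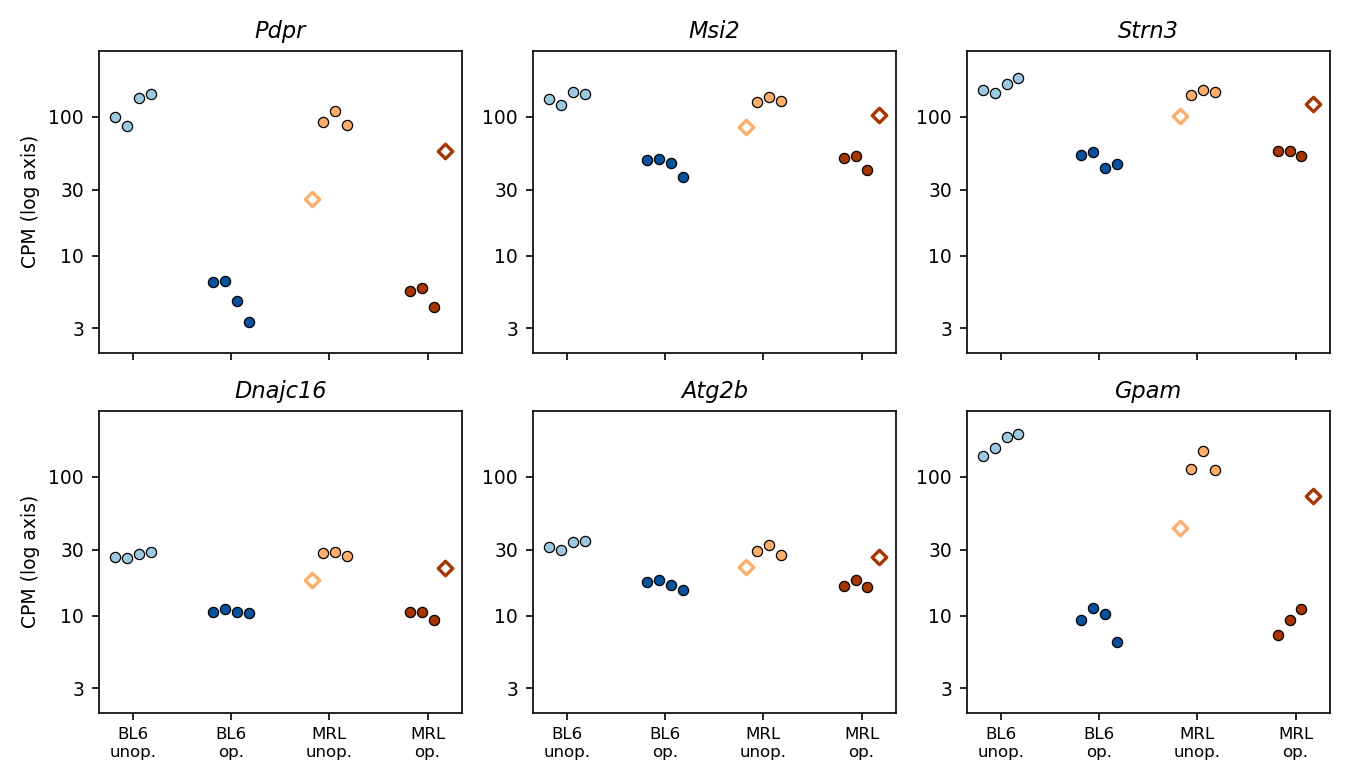
CPM on a log axis of Pdpr and the 5 genes most like it, 1 point per library in the 4 groups, with open diamonds for the 2 MRL libraries that stand apart. In each panel the operated MRL diamond lies above the other operated MRL samples and the unoperated one below its group, at 57.1 and 25.7 CPM for Pdpr.

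The nearest genes of the table on chromosome 8 were called lower in both strains, where 32.8% of all genes were lower in BL6 and 22.7% in MRL. Pdpr was chosen as the largest fall among named genes in BL6, so a smaller fall of its neighbours there was set by that choice. Aars, an alanyl-tRNA synthetase gene that ends 37.0 kb before Pdpr, fell by 0.65 in BL6 (edgeR adjusted p 0.000670) and by 0.43 in MRL (adjusted p 0.0193). Glg1, a Golgi glycoprotein gene that begins 17.4 kb after Pdpr, fell by 1.29 in BL6 (adjusted p 0.000432) and by 0.69 in MRL (adjusted p 0.0346). The noncoding gene 9430091E24Rik overlaps 169 exon bases of Pdpr, 3.36%, on the opposite strand. It was not analysed here, and whether counting used strand is not given in the sources used here.

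The authors' deposited table gave Pdpr a log2 fold change of -4.17 in BL6 and -2.28 in MRL, the latter with a false discovery rate of 0.00818. For Pdhb it gave -0.01 in BL6 with a false discovery rate of 0.955, and for Pdk1 in MRL, in the authors' deposited table, the rate was 0.0248, under the threshold that the fit made here missed. Between operated muscles the authors' rates were 0.00663 for Pdp1, 0.0524 for Pdhx and 0.0724 for Pdk1. Of these members, all called here, only Pdp1 was under 0.05 there.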

How the data were processed

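Total RNA of 16 muscle samples was sequenced. The authors deposited whole-number counts per gene, and a table with log2 CPM, log2 fold changes and p-values with false discovery rates for 4 comparisons per the file headers. FastQC, STAR, edgeR and mm10 are named in the submitters' processing notes without roles or versions, and the counting program, annotation and use of strand are not given in the sources used here. The table lists 11710 genes with few low counts, and the rule behind that is not given either.

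The members and the gene lists were chosen with earlier results of these data known. Counts were fitted in R 4.3.3 with edgeR 4.0.16, using TMM (trimmed mean of M values) factors and the quasi-likelihood test, all 16 samples in 1 model of 4 group means. The filterByExpr minimum count of 10 kept 11709 genes. Benjamini-Hochberg adjustment ran over all of these, and called means an adjusted p below 0.05. CPM used TMM-scaled totals, and log2 CPM a prior count of 2. Principal components were taken on log2 CPM of the genes tested. Levels between genes used CPM per kilobase of merged exons from GENCODE M21 (GRCm38), where 11708 gene IDs were found. Near copies were sought with blastn 2.17.0+ (at least 200 aligned bases at 95% identity). The fit was checked on simulated data. At 3 counts the floor was 0.0718 to 0.122 CPM, for counting error only. No pair of replicates agreed within sampling noise.

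All 10 members are named. From each of the 5 lists (41 genes, of which 39 were analysed here) the called gene with the largest rise and the one with the largest fall in each surgery comparison are named. A gene picked by the rule may be left unreported here, without a replacement. The 5 genes most like Pdpr were taken among genes of at least 5 CPM, leaving out predicted genes and clones, and the nearest genes on either side and overlapping genes are added. Pdp2, Bckdha, Bckdhb and the mention of Ppara by sample fall outside that rule and were chosen after values were seen. Alternatives were size factors as in DESeq2 1.42.0, total counts alone, the table without mitochondrially encoded genes, DESeq2, limma-voom (limma 3.58.1), no filter, the replicate number as a block, only the groups compared, and each sample left out. Leaving out both MRL libraries that stand apart, and the Pdha1 to Pdhb ratio, were chosen after seeing the data.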

Additional observations from a re-analysis of the deposited data

Results flagged for a closer look

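In groups of 4, a sample is listed here when its gap to the nearest other sample takes up more of the group's whole range than Dixon's 95% critical value allows. Of 40 sets of 1 member in 1 group, 6 met this. Chance gives about 1 in 20 for independent sets, which these are not, as all members were measured in the same libraries. Replicate 4 of operated MRL held 57.1 CPM of Pdpr, where the nearest other sample held 5.86, and 105 CPM of Pdk1, where the nearest held 49.9. Replicate 1 of unoperated MRL held 107 CPM of Pdp1 against 121 or more in the others, and 409 CPM of Pdk2 against 521 or more. Thus 4 of the 6 lay in the 2 MRL libraries that stand apart, which were noticed in part through Pdpr itself. Replicate 3 of operated MRL held 82.4 CPM of Pdhx, and the others at least 108. Replicate 1 of unoperated BL6 held 1282 CPM of Pdk4, and the others at most 606.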

How the results depend on the processing

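Over the alternatives, 1240 member values were recomputed. Direction and side of the threshold held in 1131, 52 lost a call, 17 gained one, 4 untested values of Pdpr moved by more than the spread, and 36 changed sign, 0 of them in values called with all samples. Among values given in the text the sign changed for Pdhb in BL6, to 0.026 with total counts alone, and Pdhb ran from -0.17 to 0.039 on leaving out each sample. The sign also changed for Pdpr between operated muscles, counted above as moved, to -0.0045 without operated MRL replicate 4. The BL6 count was 7 under each alternative except 8 without operated BL6 replicate 2. The MRL count ran from 3 to 8 on leaving out each sample. Pdpr in MRL ran from -3.91 to -1.78 in the same way and was -2.12 with only the MRL groups, no longer called. Members called between operated muscles numbered 5 with total counts alone, 1 with only the groups compared, and 1 to 4 on leaving out each sample. Between unoperated muscles 1 was called without both MRL libraries. The cause of these moves was not tested.

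Whether replicate numbers mark a shared batch or animal is not given in the sources used here. Correlations of same-numbered samples' deviations ran from -0.474 to 0.453. Between the strains r was 0.160 for the same number and -0.046 for different numbers in unoperated samples, and 0.165 and -0.044 in operated samples. Between unoperated and operated samples it was 0.092 and -0.041 in MRL, and -0.141 and 0.053, the reverse order, in BL6. With the replicate block, 7 members were called in BL6, 7 in MRL, 0 for the interaction and 2 between operated muscles, and Pdpr in MRL was -2.56. The members called in MRL changed under it, with Pdha1 lost and Pdk1 gained, and Pdhx was lost between operated muscles. Exon length from the longest transcript moved Pdha1 in unoperated BL6 to 310.1 and Pdhb to 110.4 CPM per kilobase, with the subunits in the same order. It moved Pdk2 there from 187 to 263 CPM per kilobase, while the lengths of Pdk4 were nearly equal (3511 and 3484 bases). The order of Pdk2 and Pdk4, and with it the kinase shares, thus depends on the length used. Pdk3, at 0.502 to 4.95 CPM, is the member of the lists that depth limits most.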
